A study of Mus musculus with 3 samples.

Results

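The 9 genes *Ncor1*, *Tbl1xr1*, *Gps2*, *Hdac3*, *Ncoa1*, *Ncoa2*, *Ncoa3*, *Med1* and *Ppargc1a* encode corepressors and coactivators of nuclear receptors. TRα1 binding sites (TRBS) were assigned to a gene when their summit, the base with the highest fragment coverage, lay inside the gene body or within 30 kb of its 5′ end in GENCODE vM21. This rule gave 31 of the 23988 TRBS of the series, 11 at the 4 corepressor genes and 20 at the 5 coactivator genes. Chromatin occupancy was measured by ChIP-seq on the striatum of euthyroid, untreated adult male C57BL/6J mice, labelled with an age of 8 and no unit, which carried a GS-tagged TRα1 in GABAergic neurons. All libraries came from this genotype, namely 2 ChIP libraries and 1 input library made from chromatin that was not immunoprecipitated. GABAergic neurons are most of the neurons of the striatum, and the tag limits the measured receptor to them, although the chromatin came from tissue pieces with all their cells and the driver of this restriction is not given in the sources used here. The processed data were 1 peak list without values for single libraries, so that no group was compared, no p-value was computed and sequencing depth was not analysed here. All positions are on GRCm38.

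The thyroid hormone receptor sits on chromatin with or without its ligand T3. Without T3 it binds NCOR1, a large scaffold that carries TBL1XR1, GPS2 and the histone deacetylase HDAC3. With T3 it exchanges them for the p160 coactivators NCOA1, NCOA2 and NCOA3 (also called SRC proteins), which bring in histone acetyltransferases, and for MED1, the subunit through which the Mediator complex contacts nuclear receptors. PPARGC1A, or PGC-1α, is a coactivator known for its control of mitochondrial biogenesis, and in the striatum it is studied for its part in neuronal energy supply. The classical TR binding sequence, DR4, consists of tandem copies of the hexamer AGGTCA, called half-sites, that are 4 bases apart.

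The sequences of 6 TRBS are shown because the results turn on them. The first 3 hold the DR4 elements found among the 31 TRBS, with both half-sites in capitals, and the other 3 are the strongest TRBS of *Ncoa3*, *Ncor1* and *Ppargc1a*. Each run holds 151 bases of GRCm38 centred on the summit, read 5′ to 3′ on the strand of the gene, and the last 3 hold no exact AGGTCA on either strand and therefore no capitals.
Tbl1xr1 upstream site, chr3:22075109-22075259, plus strand: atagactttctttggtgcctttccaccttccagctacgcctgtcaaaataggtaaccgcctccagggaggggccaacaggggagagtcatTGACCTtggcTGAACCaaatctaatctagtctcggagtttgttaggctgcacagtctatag
Ncoa3 TRBS 2, chr2:165995826-165995976, plus strand: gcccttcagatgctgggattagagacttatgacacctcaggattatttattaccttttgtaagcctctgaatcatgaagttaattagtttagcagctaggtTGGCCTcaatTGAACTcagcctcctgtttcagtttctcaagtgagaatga
Ncoa3 TRBS 4, chr2:166031477-166031627, plus strand: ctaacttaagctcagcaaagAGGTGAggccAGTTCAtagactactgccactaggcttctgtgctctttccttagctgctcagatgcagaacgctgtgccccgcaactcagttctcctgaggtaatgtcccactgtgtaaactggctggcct
Ncoa3 promoter site, chr2:165992419-165992569, plus strand: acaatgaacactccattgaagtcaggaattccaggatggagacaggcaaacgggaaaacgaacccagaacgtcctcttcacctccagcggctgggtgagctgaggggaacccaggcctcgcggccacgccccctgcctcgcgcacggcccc
Ncor1 TRBS 2, chr11:62398514-62398664, minus strand: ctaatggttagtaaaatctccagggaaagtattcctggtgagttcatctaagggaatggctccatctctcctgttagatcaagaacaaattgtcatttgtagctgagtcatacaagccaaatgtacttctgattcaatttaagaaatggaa
Ppargc1a upstream site, chr5:51583785-51583935, minus strand: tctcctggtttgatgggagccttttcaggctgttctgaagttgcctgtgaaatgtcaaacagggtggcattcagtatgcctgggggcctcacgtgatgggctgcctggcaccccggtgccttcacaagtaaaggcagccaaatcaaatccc

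The DR4 elements of the first 3 runs each differed from the repeat of AGGTCA at 2 of the 12 half-site bases, counted from 1 at the 5′ end of the element with the spacer included. The element of *Tbl1xr1*, at chr3:22075199-22075214 on the minus strand, reads GGTTCAgccaAGGTCA and carries A1G and G3T, so that its downstream half-site is intact, and the run above shows its reverse complement. The *Ncoa3* element at chr2:165995927-165995942, also on the minus strand, reads AGTTCAattgAGGCCA and carries G3T and T14C. The *Ncoa3* element at chr2:166031497-166031512 on the plus strand reads AGGTGAggccAGTTCA and carries C5G and G13T. Only the element of *Tbl1xr1* thus kept an exact half-site.

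Each TRBS is described by its pileup, which is the number of fragments that cover the summit, and by its fold enrichment, which is the pileup plus 1 divided by the local background plus 1. Intervals in brackets are 95% exact Poisson intervals of the pileup carried over to the fold enrichment. They cover the counting error of the pileup only, with the local background held fixed, and say nothing of the variation between animals. Over the whole list the fold enrichment had a median of 7.40, with quartiles of 5.95 and 11.2. The TRBS of a gene are numbered in the direction of transcription.

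**Figure D1:**
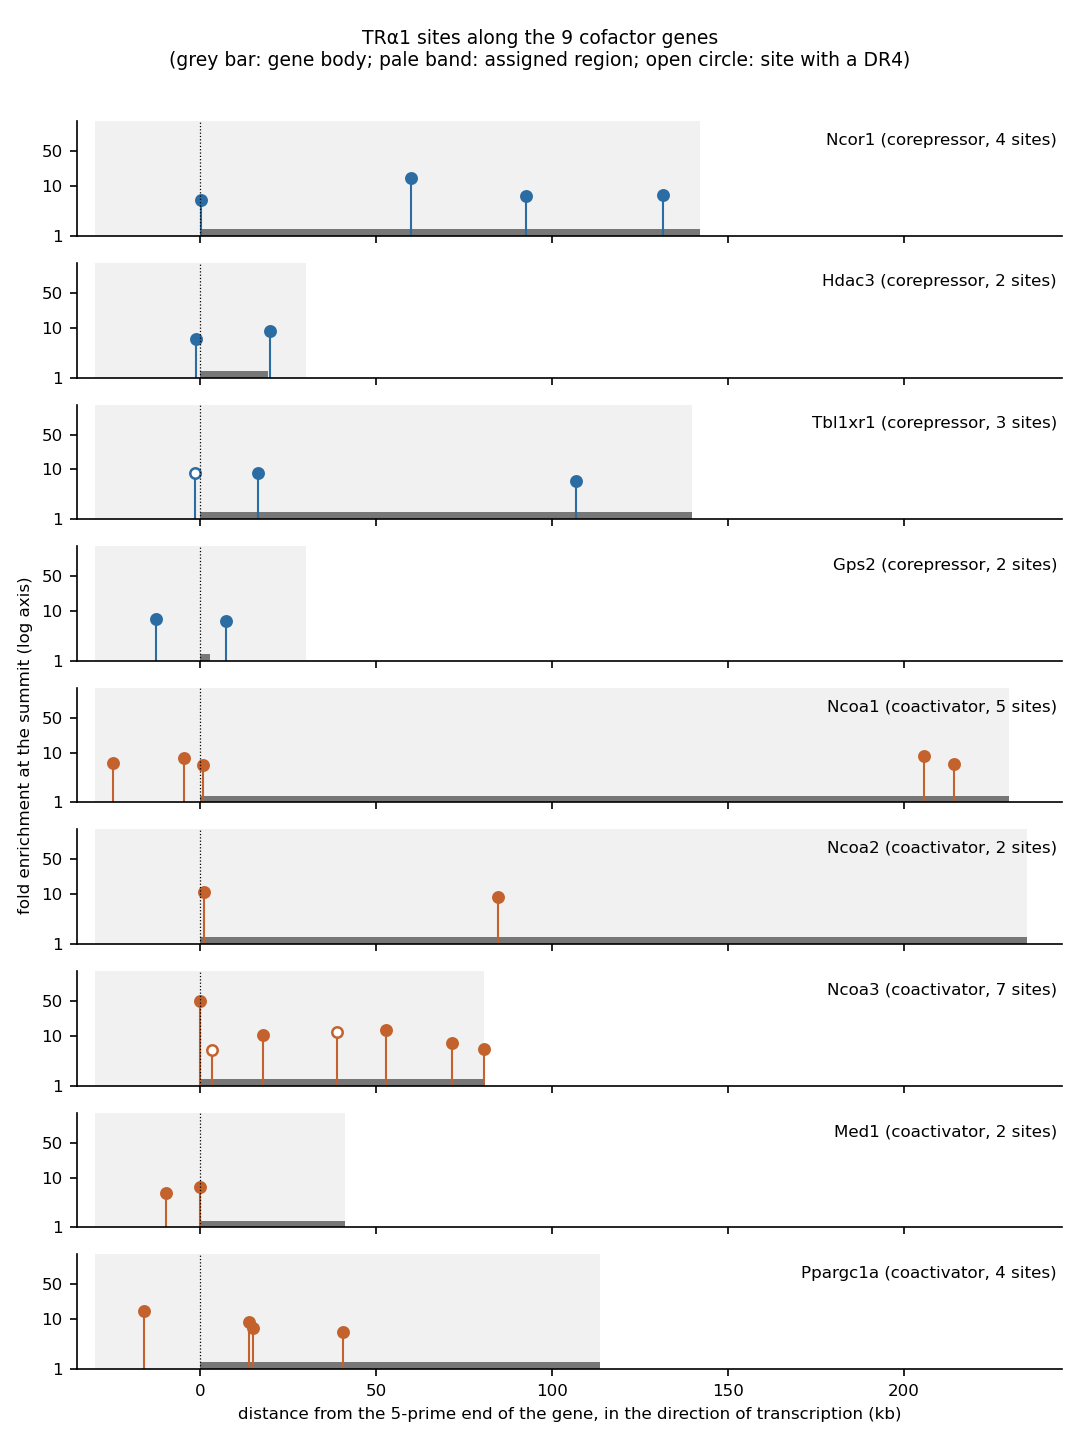
TRBS along the 9 genes, drawn as stems at their distance from the 5′ end of the gene (kb, downstream positive), with the fold enrichment at the summit on a log axis. The 7 TRBS of *Ncoa3* are spread over its whole length and its promoter stem reaches 50.0, whereas *Ncoa1* has a stretch of 205 kb without a site. Grey bars are gene bodies, pale bands the assigned regions, blue stems corepressor genes, orange stems coactivator genes and open circles TRBS with a DR4.

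*Ncor1* (chr11:62316426-62458541, minus strand), the scaffold of the corepressor complex, held 4 TRBS, all inside the gene body. The strongest was the second, at chr11:62398314-62399004 in intron 9 of the 46-exon reference transcript, 59952 bp from the 5′ end. Its pileup was 38 and its fold enrichment 14.2 [10.2 to 19.4], the highest value among the corepressor genes and rank 3902 in the list. The sequence around its summit contains the AP-1 motif TGANTCA and no DR4. The first TRBS lay at the start of the gene, 113 bp inside it, with a fold enrichment of 5.32 [3.51 to 7.75] from a pileup of 25. This summit was 32 bp from the 5′ end of the divergent gene *Pigl*, so the promoter is shared, and the nearest RefSeq start of *Ncor1* was 1014 bp away. Its local background, 3.89 fragments, was the highest of the 31 TRBS. TRBS 3 and 4, in introns 22 and 41, had fold enrichments of 6.45 [3.96 to 9.999] and 6.58 [4.14 to 9.99]. Each had an exact AGGTCA within 100 bases of the summit without forming a DR4, and TRBS 4 also lay inside the annotated body of *Ttc19*. All 4 summits were nearer to the 5′ end of another protein-coding gene, *Pigl* or *Ttc19*, than to that of *Ncor1*.

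*Tbl1xr1* (chr3:22076652-22216594, plus strand), which encodes a WD40 exchange factor of the same complex, held 3 TRBS. The first, at chr3:22074960-22075587, was upstream by 1468 bp and carried the DR4 shown above, 22 bp from the summit. It had a pileup of 39, the highest of the corepressor genes, on a local background of 3.65 fragments, which gave a fold enrichment of 8.61 [6.18 to 11.7]. The second, in intron 2 at 16408 bp, reached a fold enrichment of 8.55 [5.50 to 12.8] from a pileup of 22. These values overlap almost entirely, although the pileups differ. The third, in intron 4 at 106905 bp, had a fold enrichment of 5.95 [3.49 to 9.57] from a pileup of 15, where the lowest pileup of the list was 14. No protein-coding 5′ end was nearer to any of these summits than that of *Tbl1xr1*. The 151 bases around the first summit overlap an exon of another annotated gene, *Gm43672*.

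*Gps2* (chr11:69913888-69916591, plus strand), a short gene for a core subunit that inhibits JNK signalling, had no TRBS in its body of 2.70 kb. Both of its TRBS lay within 30 kb and belonged by distance to neighbours. One was upstream by 12739 bp, with a fold enrichment of 6.96 [4.48 to 10.4], and was 77 bp from the 5′ end of *Neurl4*. The other was downstream by 7280 bp, with a fold enrichment of 6.24 [3.97 to 9.38], and was 790 bp from the 5′ end of *Eif5a*.

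*Hdac3* (chr18:37935844-37955016, minus strand), the deacetylase of the complex, likewise had no TRBS inside its body of 19.2 kb. Its first TRBS, upstream by 1290 bp, had a fold enrichment of 5.87 [3.78 to 8.76] from a pileup of 22, and lay in *Rell2*, whose 5′ end was 1227 bp away. Its second, at 19852 bp and beyond the 3′ end of the gene, had a fold enrichment of 8.77 [5.84 to 12.7] from a pileup of 26. This summit was 312 bp from the 5′ end of *Diaph1*. For *Hdac3* and *Gps2*, therefore, all 4 TRBS were nearer to the start of another gene.

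*Ncoa3* (chr2:165992636-166073242, plus strand), the p160 coactivator also known as SRC-3 or AIB1, had the most TRBS of the 9 genes under the GENCODE bounds and the strongest one. It held 7 TRBS, which amounts to 6.33 per 100 kb of its assigned region. Its promoter TRBS, at chr2:165992015-165992749 and upstream by 142 bp, had a fold enrichment of 50.0 [42.5 to 58.6] from a pileup of 153. This was rank 200 of the whole list, and the interval does not overlap that of any other of the 31 TRBS. The 151 bases around its summit overlap an exon of another annotated gene, *Gm11464*. The promoter sequence shown above contains no DR4 with up to 3 mismatches, but the Klf box CCACGCCC, which 1.83% of all TRBS contain within 100 bases of the summit.

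The other 6 TRBS of *Ncoa3* were weaker and followed the gene to its end. Intron 1 held 3 of them, at 3265, 17930 and 38916 bp from the 5′ end, with fold enrichments of 5.25 [3.18 to 8.22], 10.4 [6.99 to 15.0] and 12.3 [8.51 to 17.2]. The first and the last of these 3 carried a DR4, at 33 and 47 bp from the summit, so that the element was present at the weakest TRBS of the gene and at one of its stronger ones. The fifth TRBS, in intron 2 at 52798 bp, had a fold enrichment of 13.2 [9.47 to 18.1] from a pileup of 38. The sixth, in intron 17, had a fold enrichment of 7.35 [4.89 to 10.6]. The seventh lay in the untranslated part of exon 23, the last exon, where *Ncoa3* overlaps *Sulf2*, with a fold enrichment of 5.58 [3.22 to 9.11] from a pileup of 14. Its summit was 5 bp inside the end of the gene, and it was the only one of the 31 that the midpoint of the TRBS, used in place of the summit, left out. The AP-1 motif was found at TRBS 2, 3 and 7.

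*Ncoa1* (chr12:4247362-4477182, minus strand), or SRC-1, held 5 TRBS in 2 groups at either end of the gene. The first 3 lay upstream by 24890 and 4690 bp and downstream by 771 bp, with fold enrichments of 6.31 [3.82 to 9.89], 7.81 [4.92 to 11.9] and 5.77 [3.74 to 8.53]. The remaining TRBS were in introns 13 and 16 of 19 exons, with fold enrichments of 8.42 [5.84 to 11.8] and 5.95 [3.49 to 9.57]. Their summits lay 37144 and 28577 bp from the 5′ end of *Cenpo*, nearer than to that of *Ncoa1*. All 5 counting intervals overlap. The last summit was 707 bp from the start of an alternative protein-coding transcript of GENCODE, whereas the nearest RefSeq start was 167989 bp away. *Ncoa1* had no DR4 within its TRBS, and its region of 259.8 kb contained 19 DR4 matches outside them.

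*Ncoa2* (chr1:13139105-13374083, minus strand), or SRC-2, had 2 TRBS in the longest of the 9 regions under the GENCODE bounds, 265.0 kb. Both lay in intron 1. The first, at chr1:13372991-13373299 and 966 bp from the 5′ end, had a fold enrichment of 11.2 [7.69 to 15.9] from a pileup of 30, with the highest GC content of the 31 TRBS, 81.6%. The second, at 84741 bp, had a fold enrichment of 8.93 [5.79 to 13.2] from a pileup of 23. Near their 5′ ends, the 3 p160 genes thus had fold enrichments of 5.77 for *Ncoa1*, 11.2 for *Ncoa2* and 50.0 for *Ncoa3*. The intervals of the first pair overlap and that of *Ncoa3* is apart.

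*Med1* (chr11:98152154-98193293, minus strand) carried the TRBS closest to a 5′ end. This TRBS, in the first, untranslated exon, had its summit at 5 bp, with a fold enrichment of 6.47 [4.07 to 9.82] from a pileup of 20. The other TRBS of *Med1*, upstream by 9843 bp, was the weakest of the 31, with a fold enrichment of 4.85 [2.98 to 7.52] from a pileup of 18, and was 77 bp from the 5′ end of *Cdk12*, a kinase gene. Its local background was 2.92 fragments against a floor of 1.69 for the list.

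*Ppargc1a* (chr5:51454250-51567726, minus strand) held 4 TRBS. The strongest, at chr5:51583431-51584062 and upstream by 16134 bp, had a fold enrichment of 14.9 [10.7 to 20.2] from a pileup of 39. It contains the E-box CACGTG within 100 bases of its summit, as does TRBS 3. These were the only 2 of the 31 TRBS with this motif in that window (6.45%, against 4.68% of the list). The second was 13882 bp downstream of the 5′ end, in the untranslated part of the first exon of the reference transcript. It had a fold enrichment of 8.80 [6.14 to 12.3] from a pileup of 33. Its summit was 27 bp from the start of a GENCODE transcript, other than the most upstream one, that is annotated for nonsense-mediated decay. The nearest RefSeq start was 77 bp from this summit and 420 bp from that of TRBS 3. TRBS 3 and 4, in introns 1 and 2 at 15062 and 40442 bp, had fold enrichments of 6.79 [4.22 to 10.4] and 5.58 [3.22 to 9.11]. None of the 4 contained a DR4.

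The extent of *Ppargc1a* depends on the annotation. RefSeq places its most distal start at position 52115853, which lengthens the gene to 661.6 kb and adds 10 TRBS to the 4, none with a DR4. The strongest of the 14, at chr5:51685378-51685897, had a fold enrichment of 32.0 from a pileup of 85, rank 760 of the list. It lay 117889 bp upstream of the GENCODE 5′ end. One of the additional TRBS, at chr5:52115656-52115980, was 92 bp from the distal RefSeq start and had a fold enrichment of 5.58. from a pileup of 14 The rate was 2.02 TRBS per 100 kb under RefSeq and 2.79 under GENCODE. The other 8 genes had the same number of TRBS under both.

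**Figure D2:**
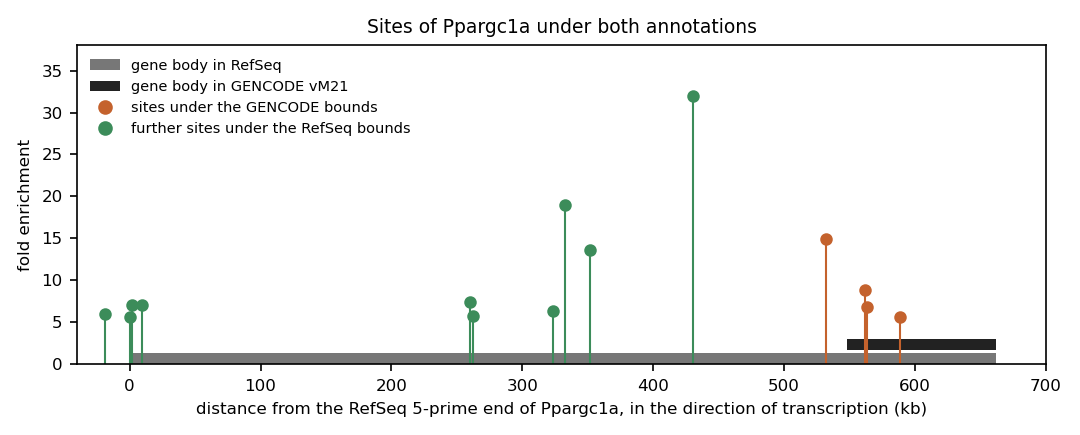
TRBS of *Ppargc1a* at their distance from the RefSeq 5′ end (kb, horizontal) with their fold enrichment (vertical, linear). The 4 TRBS under the GENCODE bounds (orange) sit near the 3′ part of the longer RefSeq gene, and the highest stem, 32.0, is among the 10 further TRBS (green).

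All 9 genes had at least 1 TRBS, against 57.7% of the 21938 protein-coding genes under the same rule. At *Hdac3* and *Gps2* all TRBS were nearer to the 5′ end of another gene. The 57.7% likewise includes genes whose TRBS lie nearer to a neighbour. The 9 genes were chosen with earlier results of these data known, so these and the later shares by gene are descriptions and were not tested. Since a long gene collects more TRBS, the number was also expressed per 100 kb of assigned region. The 9 regions summed to 1312.1 kb with 2.36 TRBS per 100 kb, and all protein-coding genes summed to 1.54, with a median gene at 1.21 and an upper quartile at 2.48. The lowest rate was that of *Ncoa2*, 0.755, above 45.5% of protein-coding genes. The next lowest, *Tbl1xr1* with 1.77, was above 72.0% of them. A single TRBS in the minimum region of 60 kb gives 1.67, which already exceeds the summed rate of 1.54. *Ncoa3* had a higher rate than 94.0% of protein-coding genes. *Hdac3* and *Gps2*, both with 3.33 over the minimum region of 60 kb, were above 78.4% of them. *Med1* with 2.81, *Ppargc1a* with 2.79, *Ncor1* with 2.32, *Ncoa1* with 1.92 and *Tbl1xr1* with 1.77 followed. Each of these rates rests on 2 to 7 TRBS, so their order among the 9 genes is loosely determined.

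**Figure D3:**
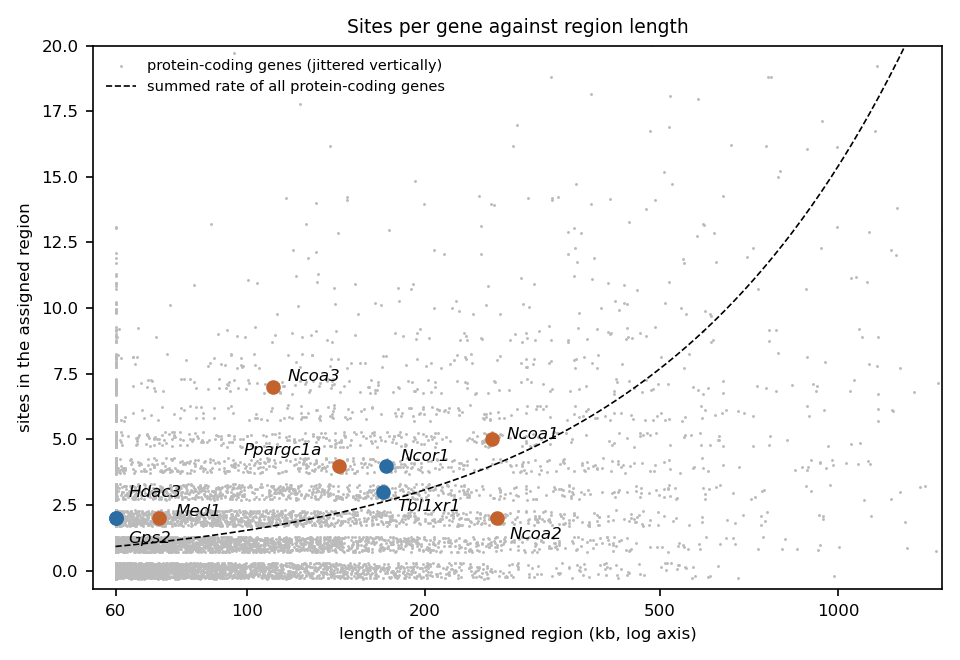
Number of TRBS in the assigned region (vertical) against the length of this region (kb, log axis) for all protein-coding genes (grey, jittered vertically), with the 4 corepressor genes in blue and the 5 coactivator genes in orange. The dashed line is the summed rate of all protein-coding genes, which 1 TRBS in a region of 60 kb already exceeds, and *Ncoa2* lies below it. *Hdac3* and *Gps2* share 1 point, and 37 genes with more than 20 TRBS or over 1500 kb lie outside the axes.

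The limits of the rule cut through few TRBS. The farthest upstream TRBS that was kept was that of *Ncoa1* at 24890 bp, with a fold enrichment of 6.31. The closest that was left out was 1.61 kb beyond the region of *Hdac3*, with a fold enrichment of 6.69, and the next was 4.69 kb beyond that of *Gps2*, with 5.43. A DR4 was present in the nearest TRBS outside *Ncor1*, 31.3 kb beyond its 3′ end with a fold enrichment of 22.0, and in that outside *Ncoa3*, 35.4 kb beyond its 3′ end with a fold enrichment of 11.2.

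In strength the 31 TRBS resembled the list apart from the *Ncoa3* promoter. Their median fold enrichment was 6.96, with a range of 4.85 to 50.0, against 7.40 for the list, and 14 of the 31 were above the list median. The median was 6.58 at the corepressor genes and 7.58 at the coactivator genes. A score of at least 200, which corresponds to a −log10 q of at least 20, was reached by 9 TRBS, or 29.0% (95% Wilson interval, 16.1 to 46.6), against 31.4% of the list. They lay at 5 of the 9 genes, where 30.6% of protein-coding genes had a TRBS with such a score. Of these 9 TRBS, 2 were at corepressor genes, 1 each at *Ncor1* and *Tbl1xr1*, and 4 at *Ncoa3*. Without *Ncoa3* the median of the remaining 24 TRBS was 6.69.

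Under the GENCODE bounds, the order of the genes by their strongest TRBS was *Ncoa3*, *Ppargc1a*, *Ncor1*, *Ncoa2*, *Hdac3*, *Tbl1xr1*, *Ncoa1*, *Gps2* and *Med1*. Only between *Ncoa3* and *Ppargc1a* did the counting intervals of neighbours in this order not overlap. Under the RefSeq bounds the strongest TRBS of *Ppargc1a* reached 32.0, for which no interval was computed. Among protein-coding genes, genes without a TRBS included, the strongest TRBS of *Ncoa3* was above that of 98.7% and the strongest of *Med1* above that of 54.7%.

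**Figure D4:**
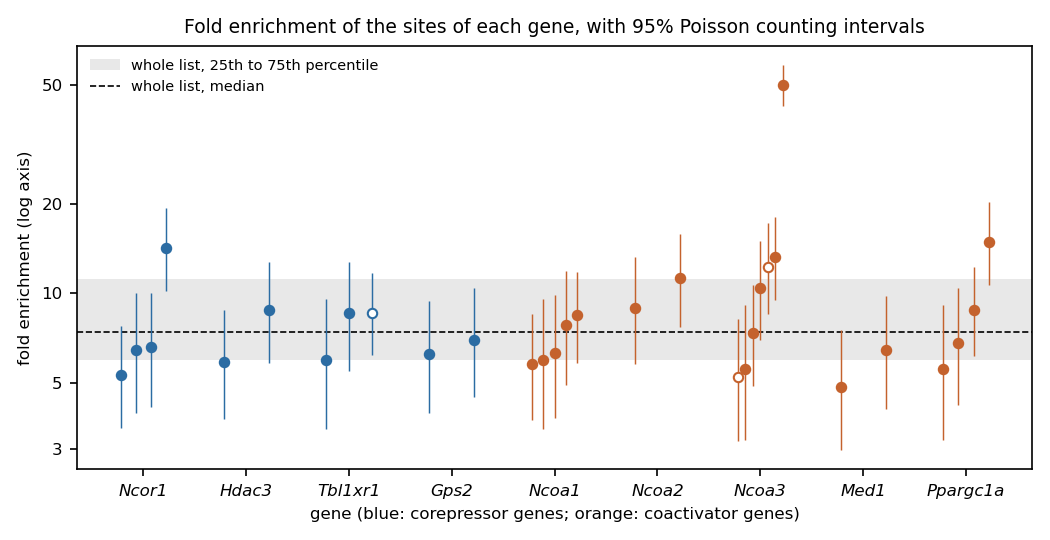
Fold enrichment of each TRBS (log axis) by gene, with vertical lines for the 95% Poisson counting interval, open circles for TRBS with a DR4, and the median and quartiles of the whole list as a dashed line and a grey band. The *Ncoa3* promoter, at 50.0, is the only TRBS whose interval is apart from all the others.

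Of the 31 TRBS, 18 were in introns of their gene (58.1%, 95% Wilson interval 40.8 to 73.6), 8 were upstream (25.8%, 13.7 to 43.2), 3 were in untranslated parts of exons and 2 were downstream. Over all 30843 pairs of a protein-coding gene and a TRBS assigned to it, in which a TRBS near several genes counts for each, 38.9% were in introns, 34.9% upstream, 6.61% in untranslated parts of exons and 15.1% downstream. The intronic share of the pairs lies just below the interval of the 31 TRBS, and no adjustment was made for the length of the genes. Relative to the 5′ end, 23 of the 31 lay downstream (74.2%, 56.8 to 86.3), against 65.1% of the pairs. Within 1 kb of the 5′ end there were 5 TRBS (16.1%), 1 each at *Ncor1*, *Ncoa1*, *Ncoa2*, *Ncoa3* and *Med1*, against 17.7% of the pairs. Counted by gene, 5 of 9 had such a TRBS, against 23.2% of protein-coding genes. With every GENCODE transcript start of the gene considered, there were 7 TRBS (22.6%, against 23.4% of the pairs) at 6 genes (against 27.4% of protein-coding genes), with *Ppargc1a* as the sixth. With the RefSeq transcript starts there were 6 TRBS at 5 genes, without *Ncor1*. Within 1 kb of the 5′ end of any protein-coding gene, neighbours included, there were 9 of the 31, against 25.8% of all TRBS assigned to protein-coding genes. The GC content had a median of 70.8% for these 9 and 44.6% for the 22 others, against 64.3% and 47.6% in the list. Of the 31 summits, 11 were nearer to the 5′ end of another protein-coding gene, and 5 of these were within 1 kb of it. The assignment of those 11 to the 9 genes was not tested, since no measurement here links a TRBS to the gene it acts on.

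A DR4 with at most 2 mismatches was present in 3 of the 31 TRBS, or 9.68% (95% Wilson interval, 3.35 to 24.9), against 17.3% of the list, a value inside this interval. The share moved with few TRBS, to 4.17% without *Ncoa3* and to 22.2% of the 9 TRBS with a score of at least 200, where the list had 21.7%. Counted by gene, *Tbl1xr1* and *Ncoa3* had a DR4 in at least 1 TRBS, which is 2 of 9 against 17.8% of protein-coding genes. None of the 9 TRBS within 1 kb of a protein-coding 5′ end had one, and a count of 0 of 9 allows a share of up to 29.9% by the Wilson interval. Among the 22 others it was 13.6% (4.75 to 33.3). The shares in the list were 9.83% within 1 kb and 19.2% farther away.

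The 9 regions contained 163 DR4 matches, or 12.4 per 100 kb against 11.0 in the sequenced genome. Of the 163, 3 lay in a TRBS (1.84%), near the 1.85% of all genomic DR4 matches that touch a TRBS. No match was perfect, and 12 had a single mismatch, of which none lay in a TRBS. Genome-wide, 4.08% of such matches and 14.8% of perfect ones touched a TRBS. The closest of the 12 was the *Ncoa3* element AGGTAAtaatAGGTCA at chr2:166064659-166064674 on the minus strand, 486 bp from the summit of the sixth TRBS and outside it. The next was an *Ncoa2* element, AGGTCAgaagAGGGCA at chr1:13288687-13288702 on the minus strand, 647 bp from the summit of the second TRBS. *Ncoa2*, with the longest region, had the most DR4 matches of the 9 genes, 47, and none was in a TRBS. Per 100 kb it had 17.7 matches, fewer than *Ncoa3* with 20.8.

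**Figure D5:**
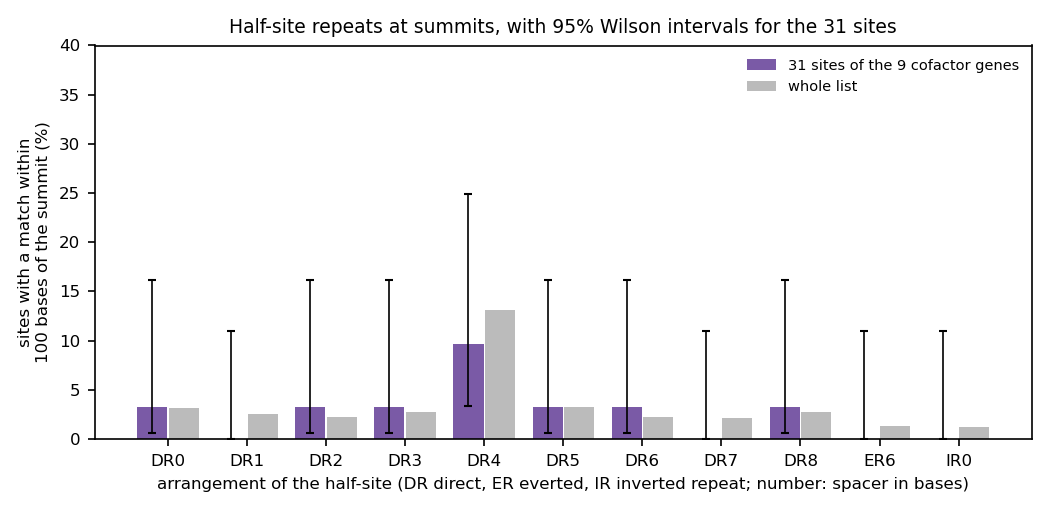
Share of TRBS (%) with each repeat of the half-site within 100 bases of the summit, for the 31 TRBS (purple, with 95% Wilson intervals) and the whole list (grey). DR4 is the most frequent arrangement in both, at 9.68% and 13.1%, and each other arrangement was found in at most 1 of the 31 TRBS.

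Other arrangements of the half-site, again with at most 2 mismatches, were rare. DR0, DR2, DR3, DR5, DR6 and DR8 were each found at 1 TRBS, and DR1, DR7, ER6 and IR0 at none, which allows a share of up to 11.0% by the Wilson interval. Motifs of other factors were searched on both strands without mismatches within 100 bases of the summit. A single AGGTCA, which can also be part of a DR4, was present at 6 TRBS (19.4%), 5 of them at corepressor genes, against 17.8% of the list. AP-1 (TGANTCA) was present at 5 TRBS (16.1%, interval 7.09 to 32.6) against 11.5%. The Sp/Klf motif GGGCGG was present at 4 TRBS (12.9%) against 18.2%, and the NFI motif TTGGCA at 2 (6.45%) against 9.95%. The CACC box GGGTGGGG was present at 2 TRBS (6.45%) against 5.47%, the ETS motif CCGGAAG at 2 (6.45%) against 2.91% and the E-box CACGTG at 2 (6.45%) against 4.68%. For every one of these motifs the share in the list lay inside the interval of the 31 TRBS. TGACGTCA (CRE), TGACGCAA (CREB), GCGCATGC (NRF1) and the ROR/Rev-erb motif were found at none, and they were present in at most 0.859% of the list. A match describes letters only, and binding by these factors was not measured.

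The genes of the wider cofactor machinery were examined under the same rule as a list of 56 genes outside the 9. At least 1 TRBS was found for 49 of them (87.5%), against the 57.7% of protein-coding genes given above, 25 had a TRBS within 1 kb (44.6% against 23.2%) and 21 a TRBS with a DR4 (37.5% against 17.8%). Their rate summed to 2.68 TRBS per 100 kb, against 2.36 for the 9 genes and 1.54 for all protein-coding genes. By function, 16 of 18 genes of corepressor complexes, 13 of 17 coactivators and histone modifiers, 13 of 14 Mediator genes and all 7 chromatin remodelling genes had a TRBS. The 7 without one were *Hdac1*, *Hdac2*, *Ep300*, *Ncoa4*, *Trip4*, *Kmt2d* and *Med23*. The list was written from general knowledge but with earlier results of these data known, so these shares are descriptions and were not tested.

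The strongest TRBS of the wider list was assigned to *Hr*, which encodes the Hairless corepressor and is a classical T3 target, with a fold enrichment of 71.8. *Med26*, a Mediator subunit, followed with 59.3, *Smarcd1*, a subunit of the BAF remodelling complex, with 57.3, *Carm1*, an arginine methyltransferase, with 40.6, and *Med17* with 32.0. *Med17* had no TRBS within 1 kb of its 5′ end. For the wider list it was not examined whether a summit lay nearer to another gene. The *Ncoa3* promoter, at 50.0, would stand between *Smarcd1* and *Carm1* in this order. By rate, *Smarcd1* was first with 10 TRBS, or 16.7 per 100 kb, and *Hr* second with 7, or 11.7. *Hdac5* had 7.61 and *Med26* 7.17, and *Med25*, *Prmt1* and *Cited2* shared 6.67. *Ncoa3*, with 6.33, came after these 7 genes.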

How the data were processed

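TRα1 ChIP-seq had been performed on striatum crosslinked with disuccinimidyl glutarate and formaldehyde, with 2 ChIP libraries and 1 input library, grouped by their titles. The authors aligned reads to mm10 (GRCm38) and called peaks, with Bowtie2 2.3.2.2 and MACS2 2.1.1.20160309.0 named in the submitters' processing notes, keeping those with a score of 60 or more. Pooling of the ChIP libraries and the treatment of duplicate reads are not given in the sources used here. The deposited list gives for each site the fragment coverage at the summit (pileup, a signal), the fold enrichment (a ratio to the local background), the −log10 q and the score of MACS (−log10 q multiplied by 10 and cut to a whole number). It holds no columns of the authors' own comparisons.

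Sites were assigned by summit with GENCODE vM21, and RefSeq gene bounds on GRCm38 were added after seeing the data. The local background was recovered from the pileup and the fold enrichment, in which 1 is added to both terms. DR4 was searched on both strands allowing 2 mismatches over the 12 bases of its half-sites. Shares carry 95% Wilson intervals, which cover counting error only. Gene lists, members, motifs and comparisons were chosen with earlier results of these data known. All 9 genes are described, with every site that has a DR4 or lies within 1 kb of a transcript start. Other genes are named where a site lies nearer to their 5′ end or overlaps them. From the wider list, the 5 with the highest fold enrichment, the 5 with the highest rate, ties included, and those without a site are named. The alternatives were a score of at least 200, distances of 10 kb and 30 kb alone, midpoints, other mismatch limits, all transcript starts, nearest genes only, *Ncoa3* left out and RefSeq bounds. Computations used Python 3.11.15, pandas 2.3.3, numpy 2.4.6, scipy 1.17.1, pysam 0.24.0 and matplotlib 3.10.9, and were tested on simulated data.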

Additional observations from a re-analysis of the deposited data

How the results depend on the processing

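Of 44 values recomputed under the alternatives, 36 stayed within 1.5 times the reported count, median or rate, or within the Wilson interval of the reported share. A score of at least 200 in place of 60 left 9 TRBS at 5 genes, 0.686 per 100 kb with a median fold enrichment of 12.3 (14.5 in the list), and 29 of the 56 genes of the wider list with a TRBS, against 30.6% of protein-coding genes at this score. The share of TRBS with a DR4 was then 22.2% (21.7% of the list). At the score of 60 and without *Ncoa3* it was 4.17%. Each of these values lay within the Wilson interval of the reported share. Without gene bodies, 30 kb around the 5′ end held 19 TRBS. The DR4 share was 0% with at most 1 mismatch (3.86% of the list) and 58.1% with at most 3 (52.9% of the list). RefSeq bounds, added after seeing the data, gave 41 TRBS. No paired analysis was possible because the list holds no values for single libraries, and for the same reason no library could be left out. The pileup limits the precision, since the lowest pileups, 14 fragments, leave a wide counting interval.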
